A study of Monodelphis domestica with 2 samples.

Results

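The activity-regulated genes FOS, FOSB, JUNB, EGR1, EGR3, NPAS4, ARC, NR4A3, BDNF and HOMER1 were followed across the cell subclasses of V1, the primary visual cortex, in a marsupial, the opossum Monodelphis domestica. These 10 genes were taken by symbol from the 30800 genes of the count tables, of which 11590 carry a symbol. Nuclei came from 2 adult male animals that form a single group, animal 1 at 1.5 years and animal 2 at 2 years of age, with V1 of both hemispheres pooled within each animal. The tissue was frozen for about a year, nuclei were sorted on the DNA stain Draq5, and each suspension was split into 2 single-nucleus RNA libraries (1A and 1B, 2A and 2B). No animal was stimulated or deprived of light as far as the sample descriptions say, so the levels describe tissue as collected. The animals also differ in age and were processed in parallel by 2 experimenters, and age, animal and experimenter cannot be told apart.

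Activity-regulated genes are transcribed when synaptic input and calcium entry activate kinases and transcription factors already present in a neuron. The early wave encodes transcription factors of the FOS, JUN, EGR, NPAS4 and NR4A families, which in turn act on effector genes. ARC, BDNF and HOMER1 encode proteins that act at or near synapses: ARC in the removal of glutamate receptors from the membrane, BDNF as a secreted growth factor and HOMER1 as a scaffold for metabotropic glutamate receptors.

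A total of 32764 of 36558 barcodes carried a subclass label, with a median of 6169 unique molecular identifiers (UMIs, each counting 1 captured RNA molecule) and 2658 genes. Library totals ran from 55625042 to 69706055 UMIs. The 18 subclasses comprised 8 glutamatergic ones (the intratelencephalic subclasses IT_A to IT_D, L5PT, L5NP, L6CT and L6b), 5 GABAergic ones (Pvalb, Sst, Vip, Lamp5 and Frem1) and 5 non-neuronal ones (oligodendrocytes, OD; their precursors, OPC; astrocytes, Astro; microglia, Micro; endothelial cells, Endo). Glutamatergic nuclei were deeper (median 8088 UMIs, 20150 nuclei) than GABAergic (6317 UMIs, 4347 nuclei) and non-neuronal nuclei (2117 UMIs, 8267 nuclei). Of 45 measured cell type markers, 36 were highest under their own label in both animals. No measured marker was so for L5PT (FEZF2, BCL11B), L5NP (TSHZ2, HTR2C), L6b (CCN2, highest in microglia) or Frem1 (FREM1, highest in Lamp5). The only listed Pvalb marker, PVALB, was not found by symbol and not measured. The IT markers RORB and CUX2 were listed for IT subclasses as a whole. All these names are used as deposited. Any 2 libraries shared between 16 and 30 barcode sequences.

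Levels are given as CPM, the share of a gene in all UMIs of an animal's subclass, scaled to 1000000 UMIs. The members differed widely in how many UMIs stood behind them. HOMER1 had 231307 UMIs in labelled nuclei and was detected in 73.7% of them. BDNF had 8342, NR4A3 2902 and EGR1 2439 UMIs, and these 3 genes were detected in 11.8%, 5.94% and 5.47% of nuclei. JUNB (598 UMIs), FOS (532), ARC (487), NPAS4 (473) and FOSB (179) were each detected in under 2% of nuclei, and EGR3 had 25 UMIs in all. Between 85.0% (FOS) and 97.5% (BDNF) of a member's UMIs lay in glutamatergic nuclei, which held 78.3% of the UMIs of all genes. For EGR3, FOSB, ARC, NPAS4 and JUNB, between 11 and 17 of the 18 subclasses held fewer than 10 UMIs of the gene in the 2 animals together, so their order over subclasses was not detectable at this depth.

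The members FOS, FOSB and JUNB lay between 0.250 and 3.31 CPM in every class. FOS, which forms the AP-1 complex with JUN proteins, stood at 2.29 CPM in glutamatergic nuclei of animal 1 and 2.74 CPM in those of animal 2, against 0.939 and 2.32 CPM in GABAergic nuclei and 1.08 and 2.45 CPM in non-neuronal nuclei. The FOS level in glutamatergic nuclei was therefore 2.43 times the GABAergic level in animal 1 and 1.18 times in animal 2. Across glutamatergic subclasses FOS lay within a narrow band, from a mean of 1.55 CPM in IT_C to 2.92 CPM in IT_B, and no neighbouring pair of glutamatergic subclasses in its order was separated beyond the 2 animals. FOSB, its paralog, was at 0.745 and 0.982 CPM in glutamatergic nuclei, 0.250 and 0.579 CPM in GABAergic nuclei and 0.451 and 0.699 CPM in non-neuronal nuclei. JUNB, a JUN-family partner in AP-1, was at 3.31 and 2.61 CPM in glutamatergic, 1.75 and 1.95 CPM in GABAergic and 1.08 and 1.28 CPM in non-neuronal nuclei. For JUNB, the lowest glutamatergic value lay above the highest value of either other class.

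FOS reached its highest level in endothelial nuclei, at 20.6 CPM in animal 1 and 225 CPM in animal 2, but on very few molecules. In animal 1 a single UMI in 1 of 29 endothelial nuclei carried the value, and in animal 2 there were 13 UMIs in 4 of 36 nuclei. No FOS UMI was found in Lamp5 or Frem1 nuclei of either animal, where a count of 0 allows up to 2.42 and 2.33 CPM in Lamp5 and up to 2.68 and 3.46 CPM in Frem1. These limits lie above the FOS level of Vip nuclei (1.58 and 1.49 CPM), so absence from Lamp5 and Frem1 nuclei was not detectable at this depth. Such limits and all intervals cover counting error only.

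EGR1, a zinc-finger transcription factor widely used as a marker of recent neuronal activity, was at 10.8 CPM in glutamatergic nuclei of animal 1 and 14.2 CPM in animal 2. In GABAergic nuclei it was at 2.63 and 6.23 CPM and in non-neuronal nuclei at 1.99 and 4.19 CPM, below the glutamatergic level in both animals. Its highest well-counted subclass was IT_B, with 15.6 and 17.0 CPM in the libraries of animal 1 and 20.7 and 20.6 CPM in those of animal 2, which gave 16.3 and 20.7 CPM in the 2 animals. IT_D (15.8 and 12.9 CPM), IT_A (12.2 and 13.8 CPM) and L6CT (8.71 and 17.1 CPM) followed. Both animal values of IT_B lay above those of IT_D and IT_A, although IT_D rests on 9 and 38 UMIs and its interval in animal 1 (7.24 to 30.1 CPM) spans IT_B, whereas IT_D, IT_A and L6CT overlapped one another. L5NP was at 4.78 and 8.02 CPM. At the low end, Lamp5 nuclei held a single EGR1 UMI in the 2 animals. Pvalb nuclei, the most numerous GABAergic ones, had 2.27 CPM in animal 1 and 8.20 CPM in animal 2. EGR3, a relative of EGR1, had 15 of its UMIs in IT_A (3 in animal 1 and 12 in animal 2) and none in 14 subclasses.

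**Figure D1:**
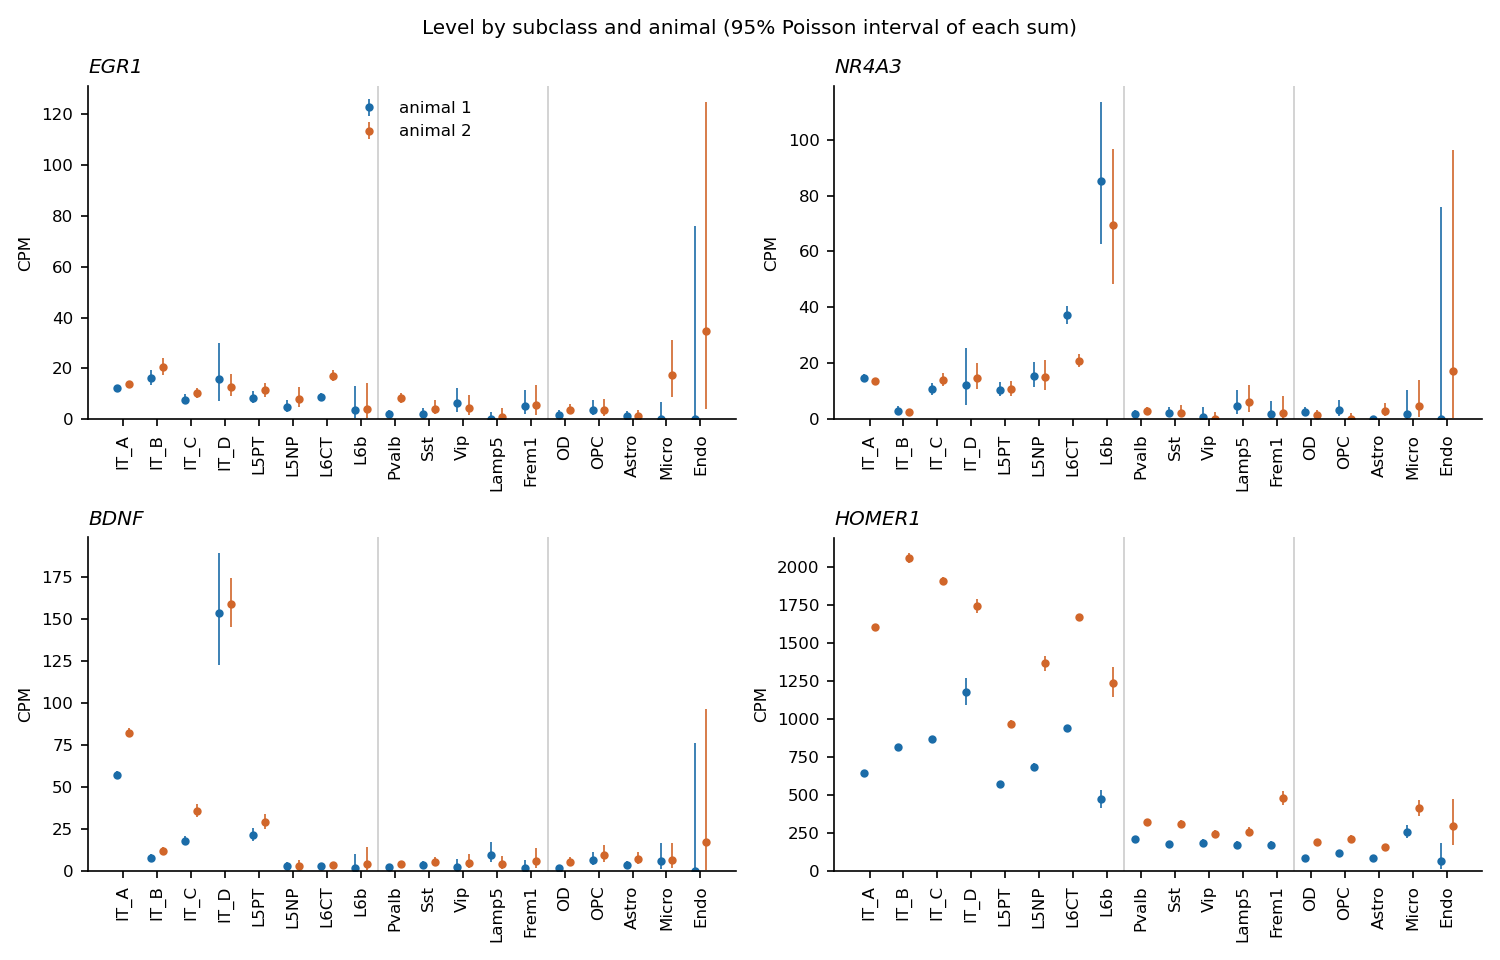
Level (CPM, vertical axes starting at 0) of EGR1, NR4A3, BDNF and HOMER1 in each of 18 subclasses (horizontal axes, ordered as glutamatergic, GABAergic and non-neuronal, separated by grey lines). Points are the sums of animal 1 (blue) and animal 2 (orange) and bars the 95% Poisson interval of each sum; NR4A3 peaked in L6b and L6CT, BDNF in IT_D and IT_A, and the wide bars of Endo reflect 29 and 36 nuclei.

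NPAS4, a transcription factor induced in neurons by calcium entry, had 97.0% of its UMIs in glutamatergic nuclei. It was at 1.36 and 3.55 CPM in glutamatergic nuclei, 0.313 and 0.290 CPM in GABAergic nuclei and 0.361 and 0.117 CPM in non-neuronal nuclei. In Pvalb nuclei it was at 0.114 and 0.130 CPM, a single UMI in each animal, and in Vip nuclei at 0.790 and 0.743 CPM, again a single UMI in each. Frem1 nuclei had 2.68 CPM in animal 1 (3 UMIs) and 1.15 CPM in animal 2 (1 UMI). Within the glutamatergic class, L6CT (1.34 and 4.22 CPM), IT_A (1.49 and 3.70 CPM), IT_C (1.61 and 2.76 CPM), IT_B (1.13 and 2.95 CPM) and L5PT (1.58 and 2.24 CPM) overlapped one another. L6b (7.93 CPM, 4 UMIs) and IT_D (5.08 CPM, 15 UMIs) had the highest NPAS4 levels of animal 2 and no UMI in animal 1.

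NR4A3 encodes an orphan nuclear receptor of the early wave. L6b, the deepest cortical neurons, stood first with 71.1 and 102 CPM in the libraries of animal 1 and 39.6 and 94 CPM in those of animal 2, from 47 UMIs in 56 nuclei of animal 1 and 35 UMIs in 53 nuclei of animal 2. L6CT, the corticothalamic neurons, came next at 40.7, 33.3, 22.2 and 19.6 CPM in the same order. L5NP followed at 15.5 and 15.1 CPM in the 2 animals, above IT_A at 14.7 and 13.8 CPM. The values of the 2 animals did not overlap at any of these 3 steps, but the intervals of L5NP (11.6 to 20.4 and 10.3 to 21.3 CPM) span IT_A in both animals and reach that of L6CT in animal 2. IT_D, IT_C and L5PT lay between 10.6 and 14.9 CPM, and neighbours in that order overlapped. IT_B stood apart from the other glutamatergic subclasses at 3.14 and 2.44 CPM, close to Pvalb (2.05 and 2.86 CPM) and below Lamp5 (4.85 and 6.20 CPM), the highest GABAergic subclass. The share of nuclei with an NR4A3 UMI was 50.0% and 34.0% in L6b, 17.0% and 10.8% in L6CT, 8.25% and 9.67% in IT_A and 2.35% and 1.83% in IT_B. In oligodendrocytes, used as a cell type that should lack neuronal transcripts, this share was 0.526% and 0.283%. However, STMN2, listed as a pan-neuronal marker, was highest in oligodendrocytes in both animals (118 and 147 CPM).

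ARC was at 2.89 CPM in glutamatergic nuclei of animal 1 and 2.45 CPM in animal 2, at 0.250 and 0.362 CPM in GABAergic nuclei and at 0.541 and 0.117 CPM in non-neuronal nuclei. The glutamatergic level was 11.5 and 6.77 times the GABAergic one. Across L5PT (3.80 and 2.06 CPM), IT_B (3.51 and 2.18 CPM), IT_A (2.90 and 2.68 CPM) and L6CT (2.14 and 2.88 CPM) the animals overlapped throughout. No ARC UMI was found in Vip, Astro, Micro or Endo nuclei of either animal. A count of 0 allows up to 2.37 and 2.23 CPM in Vip and 0.856 and 1.21 CPM in Astro. In Micro it allows up to 5.66 and 4.78 CPM and in Endo up to 61.8 and 51.8 CPM. The limits of Micro and Endo lie above the glutamatergic ARC level, so absence there was not detectable at this depth.

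**Figure D2:**
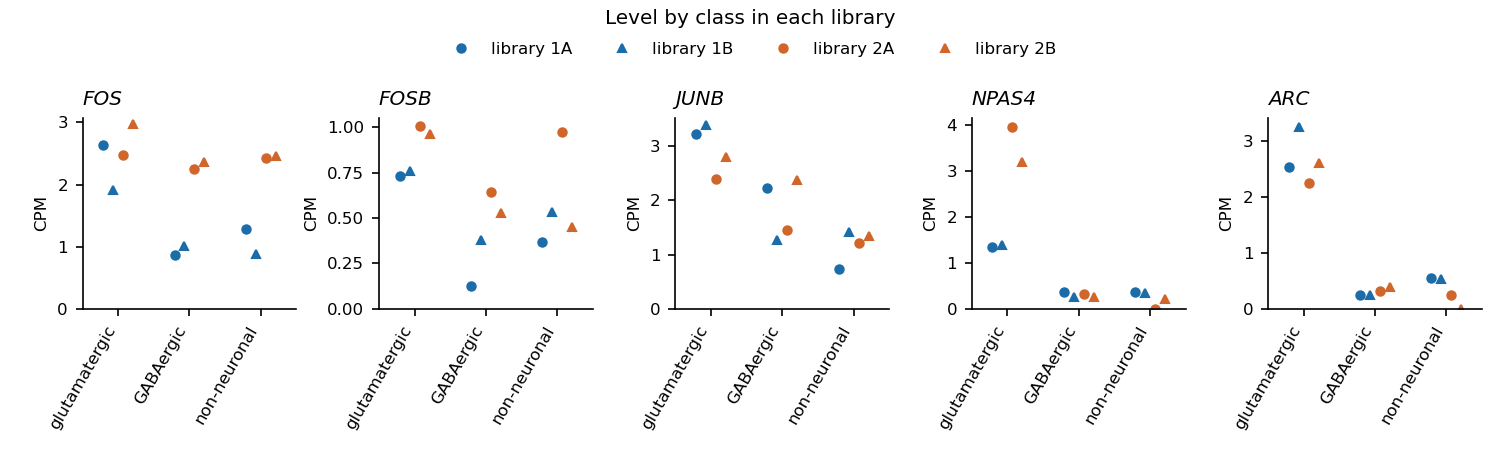
Level (CPM, vertical axes starting at 0) of FOS, FOSB, JUNB, NPAS4 and ARC by class in each library. Circles are the first and triangles the second library of animal 1 (blue) and animal 2 (orange); NPAS4 and ARC lie lower in GABAergic and non-neuronal than in glutamatergic nuclei, whereas the classes overlap for FOS.

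BDNF separated the glutamatergic subclasses into a high and a low set. IT_D stood first with 242 and 78 CPM in the libraries of animal 1 and 168 and 152 CPM in those of animal 2, which gave 153 CPM in animal 1 (58 nuclei) and 159 CPM in animal 2 (315 nuclei). IT_A followed at 53.8, 60.1, 82.7 and 81.8 CPM in the 4 libraries. IT_C (17.8 and 35.7 CPM) and L5PT (21.4 and 29.1 CPM) overlapped each other, lay below IT_A and exceeded IT_B (7.65 and 11.5 CPM). The remaining glutamatergic subclasses lay within or below the range of GABAergic and glial ones in each animal. L6CT was at 2.68 and 3.65 CPM, L6b at 1.82 and 3.97 CPM and L5NP at 2.69 and 2.83 CPM, beside OPC at 6.64 and 9.33 CPM and Pvalb at 2.27 and 4.30 CPM. The share of nuclei with a BDNF UMI was 53.4% and 46.3% in IT_D, 22.4% and 32.8% in IT_A, 1.91% and 2.46% in L6CT and 0.351% and 1.13% in oligodendrocytes. BDNF was also concentrated in few nuclei, since the 1% of IT_A nuclei with the most BDNF held 25.2% of its IT_A UMIs in animal 1 and 19.8% in animal 2, and a single nucleus reached 48 UMIs.

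The 8 glutamatergic subclasses took the first 8 places for HOMER1, from IT_D (1179 and 1742 CPM) and IT_B (816 and 2058 CPM) down to L5PT (572 and 970 CPM), and only the step from L5PT to microglia (256 and 411 CPM) was separated beyond the animals. HOMER1 was higher in animal 2 in every subclass, so that ranges over the animals were wide. Within each animal L5PT lay below IT_A to IT_D, L6CT and L5NP, and L6b was at 470 and 1240 CPM. GABAergic subclasses ran from Frem1 (170 and 476 CPM) to Vip (182 and 244 CPM), and the lowest mean levels were in OD (81.6 and 189 CPM) and Astro (84.7 and 159 CPM). In Frem1 of animal 2, 1 of 139 nuclei held 33.7% of the HOMER1 UMIs, so its place as the highest GABAergic subclass rests in part on that nucleus. A HOMER1 UMI was found in 92.3% and 96.0% of glutamatergic nuclei, 64.7% and 71.7% of GABAergic nuclei and 19.2% and 35.9% of non-neuronal nuclei. After each nucleus was thinned to 1000 UMIs, these shares were 44.8% and 63.1%, 16.9% and 25.0%, and 8.98% and 18.8%, in the same order.

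RNA released from broken nuclei can give UMIs to any droplet, so levels in oligodendrocytes were set beside those of glutamatergic markers there. HOMER1 in oligodendrocytes amounted to 11.0% and 11.5% of its glutamatergic level in the 2 animals. The markers SLC17A6 (11.4% and 9.46%), TBR1 (8.72% and 11.3%), SV2B (5.21% and 8.02%) and NEUROD6 (20.4% and 23.3%) had shares of like size. BDNF (5.70% and 9.27%) and NR4A3 (14% and 11.0%) lay within the range of these markers. EGR1 lay within it in animal 1 (17.1%) and above it in animal 2 (25.9%). The part of free RNA in these levels was not tested.

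The question whether the members are higher in excitatory than in inhibitory neurons was tested with edgeR's quasi-likelihood test on the 36 sums of animal and subclass, with equal weight for each subclass. Of all 17227 genes tested, 39.9% were called at an adjusted p under 0.05, and 20.5% were called as higher in glutamatergic subclasses. Of the 10 members, FOSB and EGR3 did not pass the filter on low counts, and NPAS4 and ARC passed it through glutamatergic sums alone, so no call is given for them. FOS, EGR1, NR4A3, BDNF and HOMER1 were called higher in glutamatergic subclasses and JUNB was not. Among the sums compared here, FOS passed the filter only in L6b of animal 2, on 2 UMIs, and in no GABAergic sum. Its other sums past the filter were non-neuronal. The log2 fold change was 3.08 ± 0.27 (SE, edgeR adjusted p = 1.01e-10) for NR4A3 and 2.31 ± 0.25 (9.36e-09) for HOMER1. It was 1.87 ± 0.39 (edgeR adjusted p = 0.000259) for EGR1, 1.92 ± 0.38 (0.000136) for BDNF and 0.85 ± 0.47 (0.166) for JUNB. For FOS the fitted fold change depends on GABAergic subclasses with 0 UMIs and is not a size, and the adjusted p was 0.00428.

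The call for FOS depended on how the counts were summed. With counts summed per class instead, where 32.9% of genes were called, FOS differed by a log2 fold change of 0.77 ± 0.48 (edgeR adjusted p = 0.273), whereas JUNB, at 0.80 ± 0.26, passed the threshold (adjusted p = 0.0485). In the same fit, which weights each nucleus by its depth, BDNF differed by 3.70 ± 0.40 (adjusted p = 0.000351). FOSB was at 1.21 ± 0.50 (0.104). Without animal 2 the subclass fit gave a log2 fold change of 2.80 for EGR1, with no test possible, and without animal 1 it gave 3.74 for NR4A3.

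**Figure D3:**
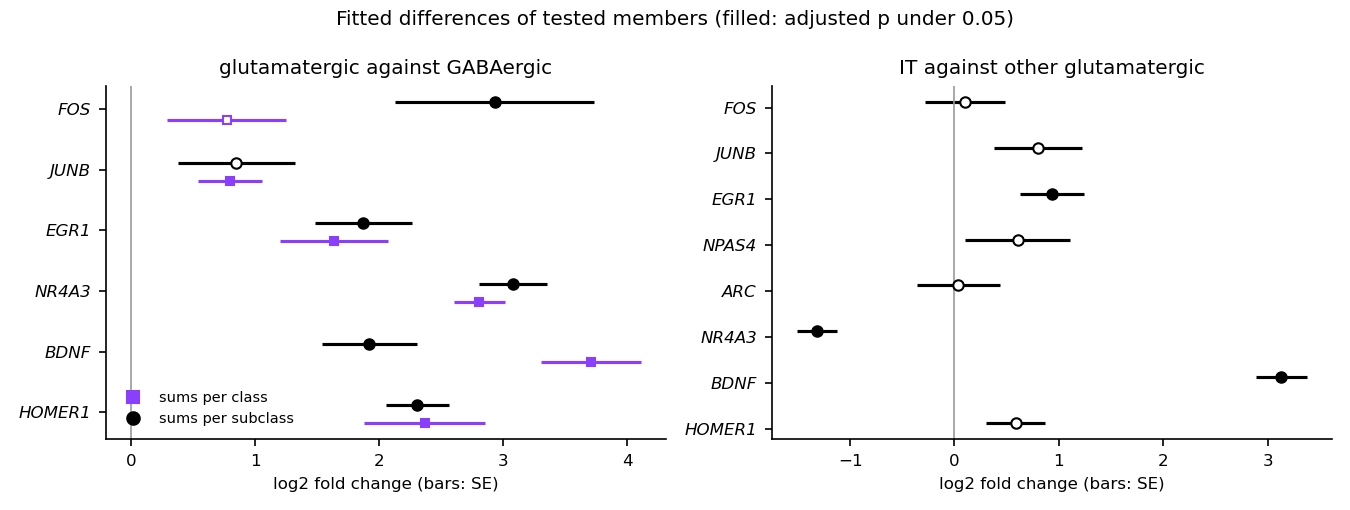
Fitted log2 fold changes (horizontal axes, bars 1 SE) of 6 members between glutamatergic and GABAergic subclasses (left) and of 8 members between IT and other glutamatergic subclasses (right). Black circles are fits of subclass sums and purple squares fits of class sums, filled where the adjusted p is under 0.05; FOS is filled on the left for subclass sums alone, and on the right BDNF and NR4A3 lie on opposite sides of 0.

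Between the 13 neuronal and the 5 non-neuronal subclasses, where 44.7% of all genes were called and 30.2% as higher, NR4A3 (log2 fold change 1.55 ± 0.45, edgeR adjusted p = 0.00503) and HOMER1 (2.09 ± 0.28, 2.79e-07) were the members called, both higher in neurons. EGR1 was at 0.60 ± 0.42 (edgeR adjusted p = 0.282) and BDNF at 0.80 ± 0.39 (0.105), and the block on animal brought BDNF past the threshold (0.80, adjusted p = 0.0286). FOS and JUNB had negative fitted values that turned positive without the endothelial sums, which also brought EGR1 (0.95, adjusted p = 0.0479) and BDNF (0.82, 0.0194) past the threshold. The 2 endothelial sums held 48514 and 57864 UMIs.

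Within the glutamatergic class, IT subclasses, which project within the telencephalon, were set against L5PT, L5NP, L6CT and L6b, and 24.4% of all genes were called. BDNF was higher in IT subclasses, by a log2 fold change of 3.13 ± 0.24 (edgeR adjusted p = 1.42e-11). NR4A3 was lower in IT subclasses, at -1.32 ± 0.19 (edgeR adjusted p = 3.13e-06). EGR1 was higher at 0.93 ± 0.31 (edgeR adjusted p = 0.0246), a call lost when nuclei carried labels predicted from the other animal without the listed genes (0.68, adjusted p = 0.0718). HOMER1 was at 0.59 ± 0.28 (edgeR adjusted p = 0.142), and it passed the threshold once the animal was a block in the fit (0.55, adjusted p = 1.01e-06). FOS (0.10 ± 0.38, adjusted p = 0.936), NPAS4 (0.61 ± 0.50, 0.455), ARC (0.04 ± 0.40, 0.99996) and JUNB (0.80 ± 0.42, 0.194) were not called.

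Each subclass was also set against the mean of the others of its class. Over all genes, 17.2% of gene and subclass pairs were called. Among the members 15 of 144 pairs (10.4%) were called, a smaller share than over all genes, and 7 of them were for BDNF. With the animal as a block 26 of 144 (18.1%) were called, beside 20.7% over all genes. With no filter on low counts the order turned, at 33 of 180 (18.3%) beside 10.8% over all genes, and the difference in shares was not tested. BDNF was higher in IT_D (log2 fold change 3.97 ± 0.24, edgeR adjusted p = 1.29e-13), IT_A (2.67 ± 0.22, 1.49e-10), IT_C (1.04 ± 0.27, 0.00744) and L5PT (1.00 ± 0.28, 0.0114). It was lower in L5NP (-2.88 ± 0.55, edgeR adjusted p = 0.000276), L6CT (-2.47 ± 0.45, 0.000161) and L6b (-2.81 ± 0.84, 0.0258). NR4A3 was higher in L6b (2.54 ± 0.31, edgeR adjusted p = 3.26e-07) and L6CT (1.08 ± 0.23, 0.000709) and lower in IT_B (-2.64 ± 0.35, 7.16e-07). EGR1 was higher in IT_B (1.17 ± 0.32, edgeR adjusted p = 0.00850). BDNF and NR4A3 thus differed from their class in opposite directions in L6CT and L6b.

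The other 4 pairs were for FOS, which was called higher in Pvalb (edgeR adjusted p = 0.0354) and Endo (4.27e-07) and lower in OD (0.00738) and Astro (0.0169). The Pvalb call is set against a class mean that includes the 0 UMIs of Lamp5 and Frem1, and the OD and Astro calls against one that includes the endothelial sums. The same 0 counts stood behind the only member called between Pvalb and Sst, which arise in the medial ganglionic eminence, and Vip, Lamp5 and Frem1. In that comparison 22.3% of genes were called and FOS was called higher in Pvalb and Sst (edgeR adjusted p = 0.0164). No GABAergic sum of FOS passed the filter on low counts, so this call and the Pvalb call rest on few UMIs. HOMER1 was called in 0 of the 18 subclasses by edgeR, with 0 at an unadjusted p under 0.05, and in 0 by DESeq2, whereas edgeR called it in 5 with a block on animal and in 9 with no filter on low counts.

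At the finer level of the deposited transcriptomic types, IT_A was not uniform. BDNF was highest in IT_A_3, at 107 and 166 CPM in the 2 animals, intermediate in IT_A_2 (57.0 and 81.8 CPM), IT_A_1 (57.4 and 69.7 CPM) and IT_A_4 (39.8 and 64.1 CPM), and lowest in IT_A_5 (9.71 and 9.78 CPM). NR4A3 was highest within IT_A in IT_A_2, at 26.4 CPM in both animals, and lowest in IT_A_4, at 5.48 and 7.21 CPM. EGR1 was highest within IT_A in IT_A_4, at 17.3 and 21.7 CPM, against 9.97 and 10.6 CPM in IT_A_1. IT_A_4 thus held low NR4A3 and high EGR1 at once, as IT_B did at the subclass level.

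Within L6CT, NR4A3 was at 65.0 and 25.6 CPM in L6CT_3, 49.3 and 17.8 CPM in L6CT_2, 20.5 and 25.6 CPM in L6CT_1 and 19.8 and 9.03 CPM in L6CT_4. EGR1 was highest in L6CT_4, at 16.6 and 26.3 CPM. HOMER1 was lowest within IT_A in IT_A_5, at 440 and 652 CPM, and highest in IT_A_2 in animal 1 (781 CPM) and in IT_A_1 in animal 2 (1871 CPM). These values are descriptions, because the types were defined on the same nuclei.

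**Figure D4:**
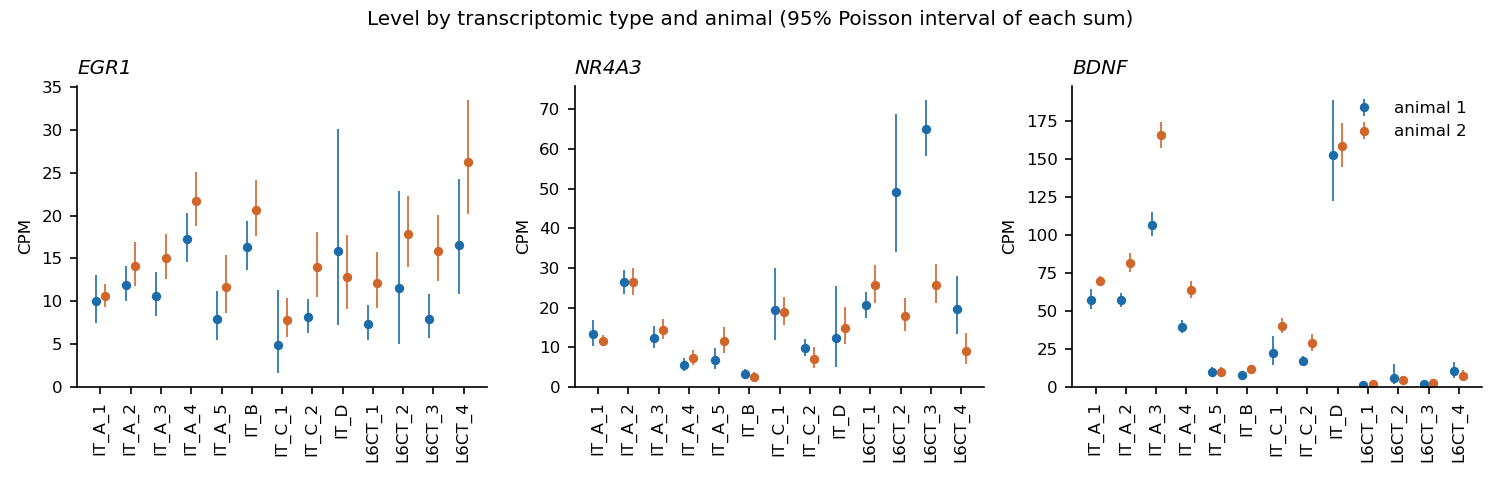
Level (CPM, vertical axes starting at 0) of EGR1, NR4A3 and BDNF in the transcriptomic types of IT and L6CT nuclei (horizontal axes), for animal 1 (blue) and animal 2 (orange) with 95% Poisson intervals. BDNF was highest in IT_A_3 and IT_D, and NR4A3 in L6CT_3 and L6CT_2 of animal 1.

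The genes whose profile over the 18 subclasses was most like that of a member were ranked by Pearson's r of log2(mean CPM + 1) among 7042 genes with a symbol and enough counts. For NR4A3 they were TRIM66 (r = 0.872), DYNC1LI1 (0.868) and RABGAP1L (0.855), all highest in L6b. For BDNF they were MED27 (0.909), TRABD2B (0.857) and KCNV1 (0.830), all highest in IT_D. For HOMER1 they were PHYHIP (0.947), STX1A (0.937) and VIPR2 (0.929), highest in IT_A, IT_C and IT_D. For FOS they were MMP28 (0.912), C1orf115 (0.898) and RBSN (0.897), all 3 highest in endothelial nuclei, as FOS was. The part of the endothelial sums in this likeness was not tested. These correlations are descriptions over 18 points that share libraries and depth.

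The members were also compared between animal 1 and animal 2, which is a comparison of 2 animals without replicates. In glutamatergic nuclei the ratio of the CPM of animal 2 to that of animal 1 was 2.61 for NPAS4 (95% counting interval 2.09 to 3.26), 2.22 for HOMER1 and 1.75 for BDNF. These 3 of 9 members with enough UMIs were at least 1.5-fold higher in animal 2 with no overlap of libraries, a pattern that 2.49% of all genes showed. NPAS4 was at 1.34 and 1.38 CPM in libraries 1A and 1B and at 3.97 and 3.2 CPM in 2A and 2B. BDNF was at 31.3 and 33.3 CPM in the libraries of animal 1 and at 56.3 and 56.7 CPM in those of animal 2. The libraries of an animal thus lay close together for both genes.

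Not all members were higher in animal 2. FOS (1.20, interval 0.991 to 1.46), FOSB (1.32, 0.944 to 1.85) and EGR1 (1.31, 1.21 to 1.43) had ratios above 1. JUNB (0.790, interval 0.662 to 0.941), NR4A3 (0.812, 0.754 to 0.876) and ARC (0.847, 0.704 to 1.02) had ratios below 1. The intervals of FOS, FOSB and ARC include 1. No member was at least 1.5-fold lower with separate libraries, as 11.6% of all genes were. IT_D, which had 58 nuclei in animal 1 and 315 in animal 2, is part of this class, and without it the ratio of BDNF was 1.70. Within subclasses the BDNF ratio was 1.04 in IT_D, 1.45 in IT_A, 1.36 in L5PT and 2.01 in IT_C. The types within a subclass also differed in number between the animals, with 281 and 976 nuclei in IT_C_1 and 843 and 399 in IT_C_2, where the BDNF ratio was 1.80 and 1.68. Over the types of IT_A it ran from 1.01 in IT_A_5 to 1.61 in IT_A_4. HOMER1 was 1.34 to 2.79 times higher in animal 2 over the 17 subclasses with at least 10 UMIs in each animal. The highest of these ratios is that of Frem1, where 1 of 139 nuclei of animal 2 held 33.7% of the HOMER1 UMIs. NPAS4 had a ratio of 3.15 in L6CT, 2.48 in IT_A, 1.71 in IT_C and 1.41 in L5PT.

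In GABAergic nuclei, EGR1 had a ratio of 2.37 and HOMER1 one of 1.63, and these 2 of 3 members with enough UMIs were at least 1.5-fold higher with separate libraries, beside 1.34% of all genes. In non-neuronal nuclei only HOMER1 had enough UMIs, with a ratio of 2.06, beside 2.64% of all genes. The 87 other listed genes with enough UMIs had a median ratio of 1.01 in glutamatergic nuclei, from 0.313 for the phosphatase gene DUSP1 to 3.39 for NR4A2, a paralog of NR4A3. NR4A2 was at 135 and 178 CPM in IT_D, and without IT_D nuclei its ratio was 1.84. The summed level of 11 heat-shock and handling stress genes in glutamatergic nuclei was 241 and 246 CPM in the libraries of animal 1 and 235 and 238 CPM in those of animal 2.

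**Figure D5:**
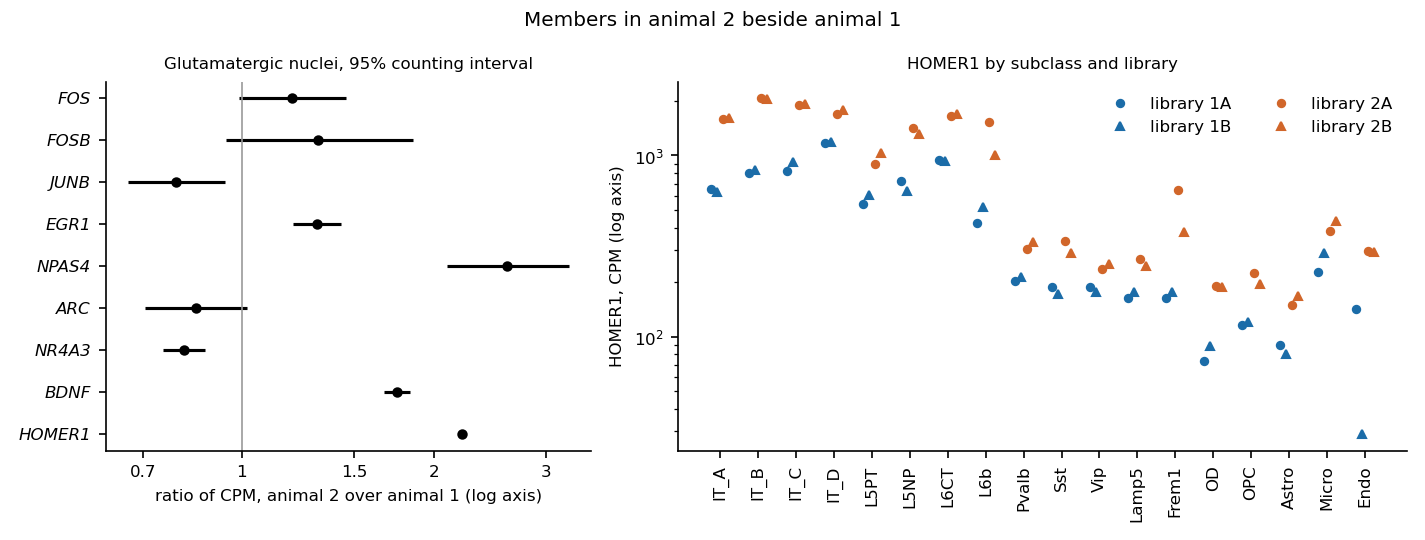
Left, ratio of the level in animal 2 to that in animal 1 in glutamatergic nuclei for 9 members (log axis, bars 95% counting interval); NPAS4, HOMER1 and BDNF lie above 1.5. Right, HOMER1 level (CPM, log axis) in each subclass and library, animal 1 in blue and animal 2 in orange, with both libraries of animal 2 above both of animal 1 in each subclass.

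Detection of several members in the same nucleus was described in IT_A, with each nucleus thinned to 4000 UMIs (3680 nuclei of animal 1 and 5108 of animal 2). EGR1 was detected in 29.3% of FOS-positive nuclei of animal 1 (12 of 41) against 4.07% of the others, and in 36.2% (17 of 47) against 4.13% in animal 2. NPAS4 was detected in 7.32% of FOS-positive nuclei (3 of 41) against 0.495%, and in 17.0% (8 of 47) against 1.09%. EGR1 was likewise more frequent among ARC-positive nuclei, at 20% (9 of 45) against 4.15% and 18.4% (9 of 49) against 4.29%. In all 3 pairs the share was higher among positive nuclei in both animals.

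BDNF was detected in 28.2% of NR4A3-positive nuclei (48 of 170) against 14.6% of the others in animal 1, and in 26.9% (63 of 234) against 18.8% in animal 2. In L6CT, EGR1 was detected in 21.4% of FOS-positive nuclei (3 of 14) against 3.32%, and in 38.9% (7 of 18) against 5.93%, with intervals that overlap in at least 1 animal. Of 45 pairs of members in IT_A, 33 had the higher share in both animals and 5 had 95% intervals apart in both, namely EGR1 with FOS, EGR1 with ARC, NPAS4 with FOS, JUNB with FOS and BDNF with NR4A3. Pairs with HOMER1 among the 33 could lie barely above independence, as for EGR1 with HOMER1 (345 nuclei held both, beside 341 if independent). With nuclei thinned to 2000 UMIs, 21 of 39 pairs had the higher share in both animals and 2 had intervals apart. Of 39 pairs in L6CT, 16 had the higher share in both animals, 13 in neither and 2 had intervals apart in both, and of 35 pairs in IT_C the counts were 12, 13 and 0. BDNF with NR4A3 was higher in neither animal in L6CT, where 1 nucleus held both. Pairs of other genes were not counted, so nothing particular to the members is read from these counts. Nuclei are not replicates, and after thinning the nuclei differ in type within IT_A, whose part in these shares was not tested.

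Counted without thinning, 20.3% and 22.0% of IT_A nuclei held a UMI of at least 1 of the 8 members other than BDNF and HOMER1, and 3.81% and 4.64% held UMIs of 2 or more. In L6b these first shares were 53.6% and 45.3%, in Pvalb 5.10% and 9.91% and in oligodendrocytes 1.45% and 1.41%. In L6b most of these nuclei held NR4A3. Depth per nucleus also differed between classes, and its part in these shares was not tested.

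The wider activity-response programme was described with 6 lists of 130 genes. Among 14 tested early-response transcription factors, 5 were higher and 4 lower in glutamatergic than in GABAergic subclasses, with a median log2 fold change of 0.22 beside -0.01 for all genes. Over all genes 20.5% were called higher in this comparison and 39.9% in either direction, and nothing is read from list counts near these shares. The 5 include EGR4, an EGR1 relative that passed the filter through glutamatergic sums alone and stood at 3.75 and 3.66 CPM in glutamatergic and 0.689 and 0.652 CPM in GABAergic nuclei. They also include NR4A2, which outside IT_D was at 1.28 and 2.36 CPM in glutamatergic nuclei. The antiproliferative gene BTG2 was called lower (edgeR adjusted p = 1.54e-09), at 2.85 and 2.29 CPM against 5.63 and 5.14 CPM.

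Of 17 early-response signalling genes, 6 were higher and 4 lower, among them RGS4, a regulator of G-protein signalling (log2 fold change 2.31 ± 0.14, edgeR adjusted p = 3.03e-14), and DUSP5, a phosphatase (-2.72 ± 0.27, 1.50e-09). Of 16 late-response effectors, 7 were higher and 3 lower (1 of these passed the filter through GABAergic sums alone), among them RASGRP1, a Ras activator (3.17 ± 0.08, edgeR adjusted p = 4.09e-23), and the growth factor IGF1 (-4.01 ± 0.21, 1.62e-15). Of 20 upstream kinases, channels and nuclear regulators, 11 were higher and 3 lower. Of 13 genes for protein partners of HOMER1, ARC and BDNF, 7 were higher and 4 lower, led by the paralog HOMER2 (2.88 ± 0.12, edgeR adjusted p = 2.31e-18) and the calcium channel ITPR1 (2.48 ± 0.10, 7.39e-19). Of 11 heat-shock and handling stress genes, 1 was higher and 4 lower.

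Between IT and other glutamatergic subclasses, where 24.4% of all genes were called in either direction, 9 of 20 upstream genes were higher, with a median log2 fold change of 0.24 beside 0.03 for all genes, and the largest was RPS6KA3, a kinase downstream of ERK (1.00 ± 0.13, edgeR adjusted p = 2.69e-07). The late-response list held 6 higher and 3 lower genes of 16, including NPTX2, a secreted pentraxin (4.29 ± 0.43, edgeR adjusted p = 7.43e-09). The counts were 3 higher and 2 lower of 14 transcription factors, 4 and 2 of 17 signalling genes, 3 and 3 of 13 partners, and 1 of 11 stress genes was higher. Between neuronal and non-neuronal subclasses, where 44.7% of all genes were called and 30.2% as higher, 11 of 13 partners were higher and 1 lower, 9 and 1 of 16 late effectors, 11 and 5 of 20 upstream genes and 3 and 3 of 17 signalling genes. In that comparison 1 of 14 other early transcription factors was higher and 7 were lower, and 2 of 11 stress genes were higher and 3 lower. Between the 2 sets of GABAergic subclasses, where 22.3% of all genes were called, the counts were 3 higher and 2 lower transcription factors, 4 and 3 signalling genes, 6 and 4 late effectors, 4 and 1 upstream genes, and 5 and 2 partners, and 1 stress gene was lower. Of these, 1 of the 4 higher signalling genes and 1 of the 4 lower late effectors passed the filter through the sums of the higher set alone.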

How the data were processed

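The authors aligned the 10x Genomics 3′ v3 libraries to the ASM229v1 assembly with Ensembl gene models whose 3′ ends they had extended, and included intronic reads. The submitters' processing notes name Cell Ranger 6.1.1, whereas the headers of the matrices name 7.1.0. The deposited matrices hold raw UMI counts. The deposited metadata hold the class, subclass and type labels and a Scrublet doublet score; per the file headers it is a per-nucleus score between 0 and 1, given as a fraction, and 798 labelled nuclei are marked as doublets. Of 36558 barcodes, 35079 pass the study's stated filter (700 to 6500 genes, under 40000 UMIs) and 32764, the number the study states, carry a subclass label; the other 3794 were left out of the comparisons.

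The members and gene lists were chosen with earlier results of these data known. Counts were summed per animal and subclass. Tests used edgeR 4.0.16 in R 4.3.3 (quasi-likelihood, TMM scaling, filterByExpr, Benjamini-Hochberg adjustment over 17227 genes, threshold 0.05), with 22 contrasts in a single fit. p-values measure the spread between 2 animals per subclass. Intervals are exact Poisson for CPM and exact binomial (Clopper-Pearson) for shares, at 95%, and limits for a count of 0 are 3 counts of the total. Correlations of same-animal deviations between subclasses ran from 0.00345 to 0.597 (median 0.116, 153 pairs), and the sums are paired by the animal they come from; the reported fit is unpaired and a block on animal was an alternative. Alternatives were DESeq2 1.42.0, its size factors, no filter, a block on animal, doublets removed, nuclei under 2000 UMIs removed, subclass labels predicted without the listed genes (96.7% unchanged), other thinning depths, and totals without the 20 most abundant genes. On simulated data for glutamatergic against GABAergic subclasses, with 17227 genes, edgeR recovered 70 of 100 genes changed 2-fold and 91 of 100 changed 4-fold. All 10 members are named. For each member with at least 20 CPM in the same subclass in both animals the 3 most similar genes are named. From each list and contrast up to 4 genes with the largest fold change among those called are named. Some listed genes are not reported here by name. Sequences and coordinates are not given here.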

Additional observations from a re-analysis of the deposited data

Results flagged for a closer look

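Nuclei that the deposited labels place in a class but leave out as ambiguous or as doublets (2315 in all) entered none of the comparisons above. In 15 cases a member's CPM there had a 95% Poisson interval above every labelled subclass of the same class in the same animal. In the 604 GABAergic nuclei left out as doublets, animal 1 had 13.4 CPM of NR4A3, 19.5 CPM of BDNF and 445 CPM of HOMER1. In animal 2 they had 18.2 CPM of EGR1, 16.7 CPM of BDNF and 897 CPM of HOMER1. The ambiguous GABAergic nuclei (730) had 811 CPM of HOMER1 in animal 2.

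In the 705 non-neuronal nuclei left out as doublets, animal 1 had 2.5 CPM of NPAS4, 12.9 CPM of NR4A3, 25.4 CPM of BDNF and 565 CPM of HOMER1. In animal 2 they had 2.59 CPM of NPAS4, 2.02 CPM of ARC, 28.2 CPM of BDNF and 1186 CPM of HOMER1. In 13 of the 15 cases the level lay between that of the labelled nuclei of the same class and that of glutamatergic nuclei of the same animal. The exceptions were EGR1 in GABAergic doublets of animal 2, above the glutamatergic 14.2 CPM, and NPAS4 in non-neuronal doublets of animal 1, above the glutamatergic 1.36 CPM.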

How the results depend on the processing

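With 2 animals per subclass, calls measure the spread between animals only, and leaving out an animal leaves 1 per subclass, so no count of calls was made without a replicate. The count of 15 called pairs of member and subclass became 33 of 180 with no filter on low counts. That share (18.3%) lay above the 10.8% over all genes, the reverse of the order in the main setting. The count was 26 with a replicate block for the animal, which is the pairing of the sums. The block also added BDNF to the members called between neuronal and non-neuronal subclasses (0.80, adjusted p = 0.0286) and HOMER1 to those called in IT subclasses, and changed no other call of the class comparisons. In the neuronal comparison 2 members were called, against 4 without the endothelial sums and 5 of 9 with counts summed per class, where 61.2% of all genes were called, both chosen after seeing the data. Without nuclei under 2000 UMIs, 0 of 6 tested members were called between the GABAergic sets by edgeR (smallest adjusted p = 0.222), because FOS was not tested. The subclass with the highest level, among those with at least 10 UMIs of the gene, was the same for 6 of 10 members by thinned shares, and for 5 to 9 without an animal. EGR3 had 1 such subclass and could not change, and over the other 9 members the counts were 5 and 4 to 8. Without the 20 most abundant genes the HOMER1 ratio between animals over all labelled nuclei, which unlike the ratios within classes also holds their makeup, was 2.39 instead of 2.35. Thinned to 2000 UMIs, 21 of 39 pairs in place of 33 of 45 were higher in both animals, and 2 in place of 5 had intervals apart. The signs of uncalled values turned for ARC in IT subclasses without doublets (-0.0055), FOS there with predicted labels (-0.059), ARC between the GABAergic sets by DESeq2 (-0.44), and, in the neuronal comparison, JUNB without nuclei under 2000 UMIs (0.023), FOS (0.63) and JUNB (0.41) without endothelial sums, and FOS (0.35) and JUNB (1.11) with class sums. The animal ratios without IT_D nuclei were also chosen after seeing the data. The cause was not tested for any of these changes.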
